A study of Mus musculus with 4 samples.

Results

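Retinoic acid (RA) is known to induce 10 genes outside retinoid metabolism in other cells, and these were followed in mouse gonocytes: Tgm2, Btg2, Ets1, Rai14, Zfp703, Skap2, Tnip1, Rarres1, Rarres2 and Foxa1. They were taken as a list of gene names and were read from every probe set that the array annotation assigned to 1 of them alone. This gave 28 probe sets for 10 of the 18193 genes that the array names. The cells were gonocytes, the male germ cells of the newborn testis, from mice 2 days post partum, enriched on magnetic beads for the surface protein THY1. All were kept for 8 h without serum, growth factors or feeder cells, in medium with either the vehicle ethanol (2 samples) or 100 nM RA (2 samples), and each sample was hybridised to 1 Affymetrix Mouse Genome 430 2.0 array. The labels name no strain, and they leave out whether each sample had its own animals or culture, so a p-value here reflects the spread between these samples alone, which may be technical.

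RA enters the nucleus and binds RA receptors, which sit with retinoid X receptors on response elements built from repeated half-sites and which exchange corepressors for coactivators when the ligand arrives. Which genes then respond depends on the cell. In the testis RA is known for turning undifferentiated germ cells towards differentiation and meiosis. The genes described here come from other settings, such as macrophages, embryonal carcinoma cells, neuroblastoma cells and skin.

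The values are linear signals, 1 per probe set and array, and differences are given on the scale of log2(signal + 5). A difference was tested with limma over the 27022 probe sets with a mean log2 value of at least 4.36, which corresponds to a signal of 15.5. The 2% trimmed mean signal was 125 on each array, and precision is limited by the number of arrays. At an adjusted p under 0.05, 0 of the 27022 probe sets were called (0% of them), while 296 were higher and 447 lower at an unadjusted p under 0.05. An exact two-sided permutation test of 2 arrays against 2 cannot give a p below 0.33. Of 9 germ cell markers with a probe set of their own, 9 were above the filter, and Ddx4 and Dazl, RNA-binding proteins of germ cells, had signals between 1121 and 1606 on the 4 arrays. Markers of Leydig, stromal, macrophage and mast cells were present too. RNA quality can be read from the 3' over 5' signal of control transcripts, which was higher on both RA arrays for Actb (2.08 and 2.32, against 1.72 and 1.73 on the vehicle arrays) and Gapdh (1.85 and 2.00, against 1.56 and 1.47). The groups overlapped in the same ratio for the transferrin receptor (14.7 and 9.59, against 11.5 and 9.57) and for pyruvate carboxylase (13.4 and 18.6, against 31.9 and 9.12). The part of this in the members' values was not tested.

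Tgm2 was the member with the largest difference, on 4 of its 5 probe sets above the filter, and the other 9 members differed less or not beyond the spread of the arrays. Of the 28 probe sets, 25 were above the filter, and each member had at least its brightest among them. At an unadjusted p under 0.05, 4 of the 25 were higher with RA, all of Tgm2, where 1.1% of all probe sets were. In the other direction 1 of the 25, of Btg2, was lower, where 1.65% of all were. Each of the 25 had an adjusted p of 1 in limma. Both RA signals exceeded both vehicle signals in 7 of the 25, against 12.7% of all probe sets, and fell short of both in 4, against 15.2%. Those 7 were 4 of Tgm2 and 1 each of Rai14, Tnip1 and Rarres2, and those 4 were 2 of Btg2 and 2 of Ets1. Probe sets of 1 gene read the same transcripts in part and are not separate evidence. Read by gene, from the brightest probe set, the RA arrays lay above in Tgm2, Tnip1 and Rarres2, below in Btg2, and overlapped with the vehicle arrays in the other 6. Over all 13011 genes read this way, 14.1% lay above and 12.6% below. The median log2 change of the 10 members was 0.18, against 0.01 over all genes. Leaving out vehicle replicate 1 gave 0.32, and leaving out vehicle replicate 2 gave 0.07. With the mean of a gene's probe sets, those below the filter included, in place of its brightest, the members' median was 0.06, against −0.01 over 12211 genes.

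**Figure D1:**
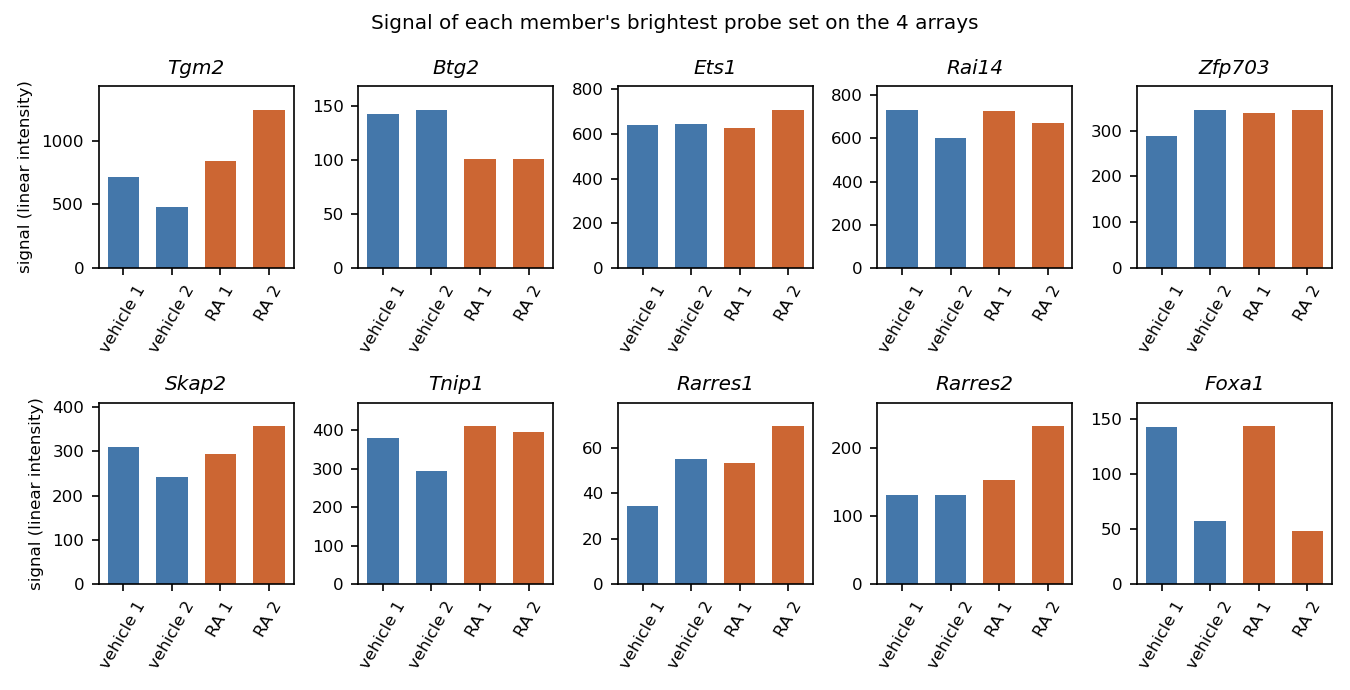
Signal (linear intensity, y axis) of the brightest probe set of each of the 10 members on the vehicle (blue) and RA (orange) arrays; each bar is 1 array, with no error bar. Both RA bars stand above both vehicle bars in Tgm2, Tnip1 and Rarres2 and below them in Btg2, while Foxa1 is high on replicate 1 and low on replicate 2 of both groups.

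Tgm2 encodes tissue transglutaminase, an enzyme that cross-links proteins in a calcium-dependent way and also binds GTP, and it is one of the longest known RA-induced genes. Its brightest probe set, 1437277_x_at, read 712.5 and 481 on the vehicle arrays against 840 and 1242 on the RA arrays. The groups did not overlap, but the lower RA array stood closer to the higher vehicle array than to the other RA array. The difference was 1.74-fold, a log2 change of 0.80 ± 0.28 (SE, n = 2 per group) with a 95% interval from 0.16 to 1.44 (limma, unadjusted p = 0.0208, adjusted p = 1). Of the 13011 genes, 123 (0.945%) had a higher log2 change. In bulk RNA, a change in the share of cells that make a transcript and a change in the amount per cell cannot be told apart.

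The other probe sets of Tgm2 gave the same direction. Probe set 1455900_x_at gave a log2 change of 0.83 ± 0.27 and 1433428_x_at one of 0.94 ± 0.23, the smallest unadjusted p among the members, 0.00415 (limma, adjusted p = 1). These and the brightest carry the suffix of probe sets whose probes can match other transcripts. Probe set 1417500_a_at, without that suffix, read 191 and 149 with vehicle against 242 and 366.5 with RA, a difference of 1.74-fold (log2 change 0.80 ± 0.26). The fifth, 1426004_a_at, was dim and overlapped, with 41.8 and 33.3 against 38.1 and 50.9 (0.21 ± 0.30). The sixth, 1438942_x_at, stayed under 3 on all 4 arrays and was below the filter. On every probe set of Tgm2 above the filter, vehicle replicate 2 was the lowest array and RA replicate 2 the highest.

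The size of the Tgm2 difference depended on single arrays. Without RA replicate 1 the log2 change of the brightest was 1.08. Leaving out RA replicate 2 gave 0.52, and leaving out vehicle replicate 2 gave 0.52 too. Each of these fits keeps 1 array in a group and does not measure the spread within it, so no p is given. Tgm2 is also made by endothelial and other somatic cells. The summed signal of 10 endothelial markers, all above the filter, came to 578 and 437 with vehicle against 598 and 580 with RA. That of 7 Sertoli cell markers came to 883 and 945 with vehicle against 1294 and 1094 with RA, with Amh and Fshr below the filter. Both sums were higher on both RA arrays, and their part in the Tgm2 difference was not tested.

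By root mean square distance of their log2 values over the 4 arrays, each centred on its own mean, the genes most like Tgm2 among 13010 others were Stat4, a transcription factor of cytokine signalling (distance 0.06), Tle6, a corepressor of the Groucho family (0.07), and Tmem59l (0.09). Tle6 read 148 and 92.1 with vehicle against 164.5 and 227 with RA. With 4 arrays, many genes lie close to any one pattern, so this is a description only.

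**Figure D2:**
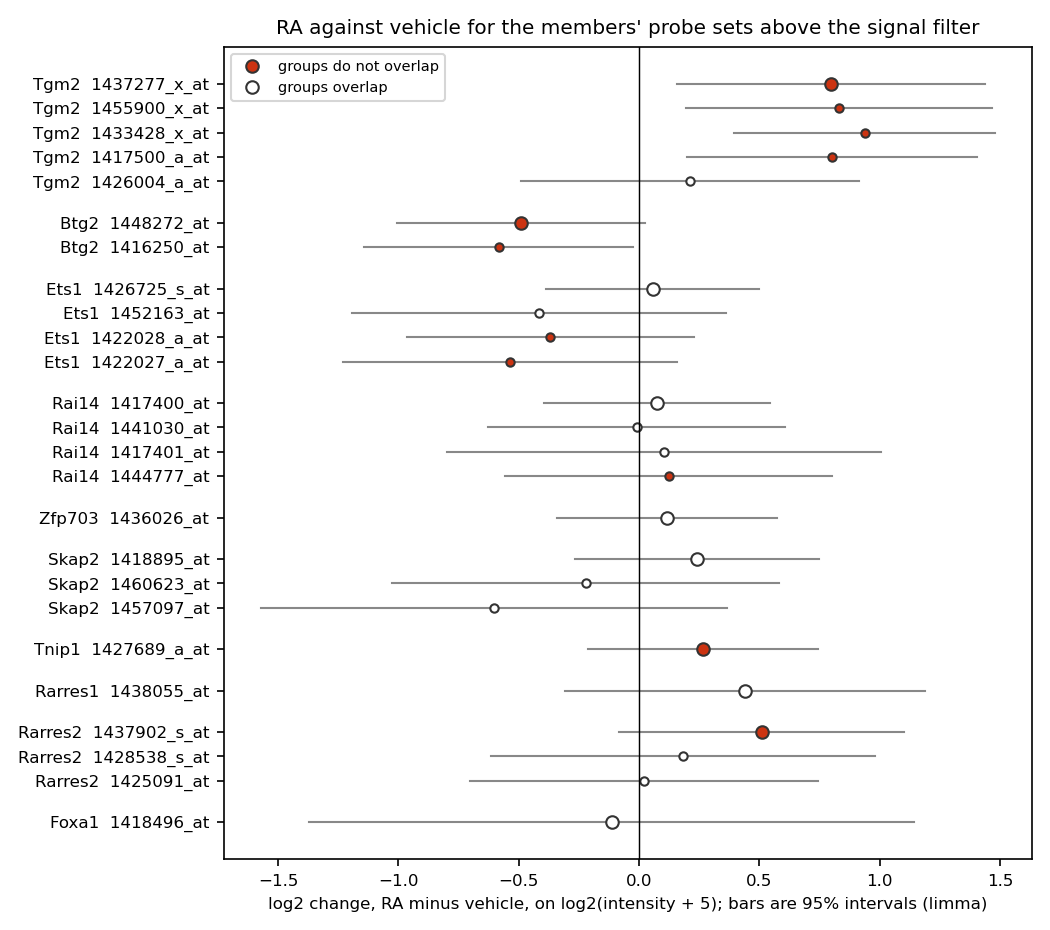
Log2 change, RA minus vehicle (x axis, log2(signal + 5) scale), of the 25 probe sets of the members above the signal filter, with 95% intervals from limma; large symbols are the brightest probe set of a gene and red ones have groups that do not overlap. The intervals of 4 probe sets of Tgm2 lie above 0 and that of 1 probe set of Btg2 lies below it, while the other 20 include 0.

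Btg2, an antiproliferative protein that recruits the CCR4-NOT deadenylase to messenger RNA and is a p53 target, had lower signals with RA on both of its probe sets. Its upstream sequence is shown because Btg2 and Tnip1 were the members with an entry in the promoter table and groups that did not overlap on the brightest probe set. The sequence is the 250 bases before the gene's start in RefSeq, build GRCm38.p6, chr1:134079156-134079405, minus strand, written 5' to 3'. Capitals mark a cyclic AMP response element, TGACGTCA, where it occurs, and an RA receptor half-site, AGGTCA or AGTTCA on either strand; the first and last bases of Btg2's element lie 166 and 159 bases before the start.
Btg2: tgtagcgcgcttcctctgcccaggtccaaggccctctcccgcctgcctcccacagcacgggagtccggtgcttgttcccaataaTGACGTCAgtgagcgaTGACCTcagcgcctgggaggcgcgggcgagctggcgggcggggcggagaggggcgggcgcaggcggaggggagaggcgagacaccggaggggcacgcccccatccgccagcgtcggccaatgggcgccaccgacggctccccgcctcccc
The half-site lies on the other strand, from 150 to 145 bases before the start. A half-site is found in 24.2% of the 32851 upstream sequences of this length in the table, and the cyclic AMP response element, looked for after the sequence was read, in 1.55%. No direct repeat of the half-sites with a spacing of 1, 2 or 5 bases is in this window.

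The brightest probe set of Btg2, 1448272_at, read 143 and 147 on the vehicle arrays against 102 on each RA array. The second, 1416250_at, had 107 and 116 against 71.1 and 74.3. The 2 arrays of each group lay close together on both probe sets, and the groups did not overlap. The first was 1.41-fold lower with RA (log2 change −0.49 ± 0.22, 95% interval −1.0 to 0.02) and the second 1.5-fold (−0.58 ± 0.24, −1.14 to −0.02; limma, unadjusted p = 0.043, adjusted p = 1). Of all genes, 4.09% had a lower log2 change than Btg2. With quantile normalization, cyclic loess and equal array medians the log2 change of the second was −0.55, −0.56 and −0.51, with unadjusted p of 0.0524, 0.0511 and 0.083. Leaving out any 1 array kept the log2 change of both probe sets between −0.64 and −0.47. Such a fit keeps 1 array in a group, so no p is given for it. The summed signal of the 9 germ cell markers came to 8216 and 8022 with vehicle against 7664 and 7994 with RA, lower on both RA arrays. The gap between the groups was smaller than the difference of Zbtb16 alone, at 701 and 699 with vehicle against 368 and 174 with RA. Of the 9, 7 had a negative log2 change and 2 a positive one. The part of germ cell share in the Btg2 difference was not tested.

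Of the other genes of the BTG and TOB family, Btg1, Tob1 and Tob2 had log2 changes of −0.03 ± 0.22, −0.22 ± 0.23 and −0.08 ± 0.20. The 10 p53 target genes looked at beside Btg2 had 9 members with a probe set of their own, all above the filter. None of the 9 passed an unadjusted p under 0.05 in either direction, and 5 were positive and 4 negative, with a median of 0.17. In 2 of them both RA signals exceeded both vehicle signals, against 14.1% of all genes, and in 0 the reverse held, against 12.6%. Plk2, a kinase of the stress response, had the smallest p with a log2 change of 0.52 ± 0.24, and Ccng1, a cyclin induced by p53, came next with −0.31 ± 0.24. Plk2 stood at 0.23 without RA replicate 2, and Ccng1 at −0.07 without vehicle replicate 2. The mean of both probe sets of Plk2, the dimmer of them below the filter, gave 0.18.

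The transcription factors Ets1, Foxa1 and Zfp703 had no difference that stood out on their brightest probe sets. Ets1, the founding member of the ETS family, read 640 and 644 with vehicle against 629 and 709 with RA on 1426725_s_at, so that the groups overlapped (log2 change 0.06 ± 0.19, 95% interval −0.39 to 0.50). Its dimmer probe sets pointed the other way. On 1422027_a_at it went from 48.7 and 65.4 to 33.8 and 41.3 (−0.54 ± 0.30) and on 1422028_a_at from 114 and 127 to 107.5 and 78.4 (−0.37 ± 0.26), both without overlap. These became −0.34 without vehicle replicate 2 and −0.15 without RA replicate 2, respectively. On 1452163_at RA replicate 2, at 107, was the only array that stood apart from the other 3, which lay between 196 and 225.5. The probe sets of Ets1 thus disagreed in sign, 1 positive and 3 negative, and the mean of all 4 gave −0.32. Without RA replicate 2 the brightest gave −0.03 and 1452163_at gave 0.11.

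Foxa1, a forkhead protein that opens chromatin in endoderm-derived and hormone-responsive tissues, differed by replicate number rather than by treatment. Its single probe set had 143 and 57.7 with vehicle and 143 and 48.3 with RA. The replicate 1 arrays of both groups were more than 2-fold above the replicate 2 arrays, and the spread within each group covered the other. The log2 change was −0.11 ± 0.54, with the widest interval among the members' brightest probe sets, from −1.37 to 1.14, and it turned with the array left out: 0.50 and 0.62 on leaving out vehicle replicate 1 or RA replicate 2, and −0.73 and −0.85 on leaving out vehicle replicate 2 or RA replicate 1.

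Zfp703, a zinc finger corepressor, read 288 and 346 with vehicle against 339 and 345 with RA (log2 change 0.11 ± 0.20, 95% interval −0.34 to 0.57). Vehicle replicate 1 was below the other 3 arrays, which were close together, and without it the log2 change was −0.02. The other 2 probe sets of Zfp703 were below the filter, with signals between 2.23 and 12.6. Zfp503, the close relative of Zfp703, had a log2 change of −0.19 ± 0.44.

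**Figure D3:**
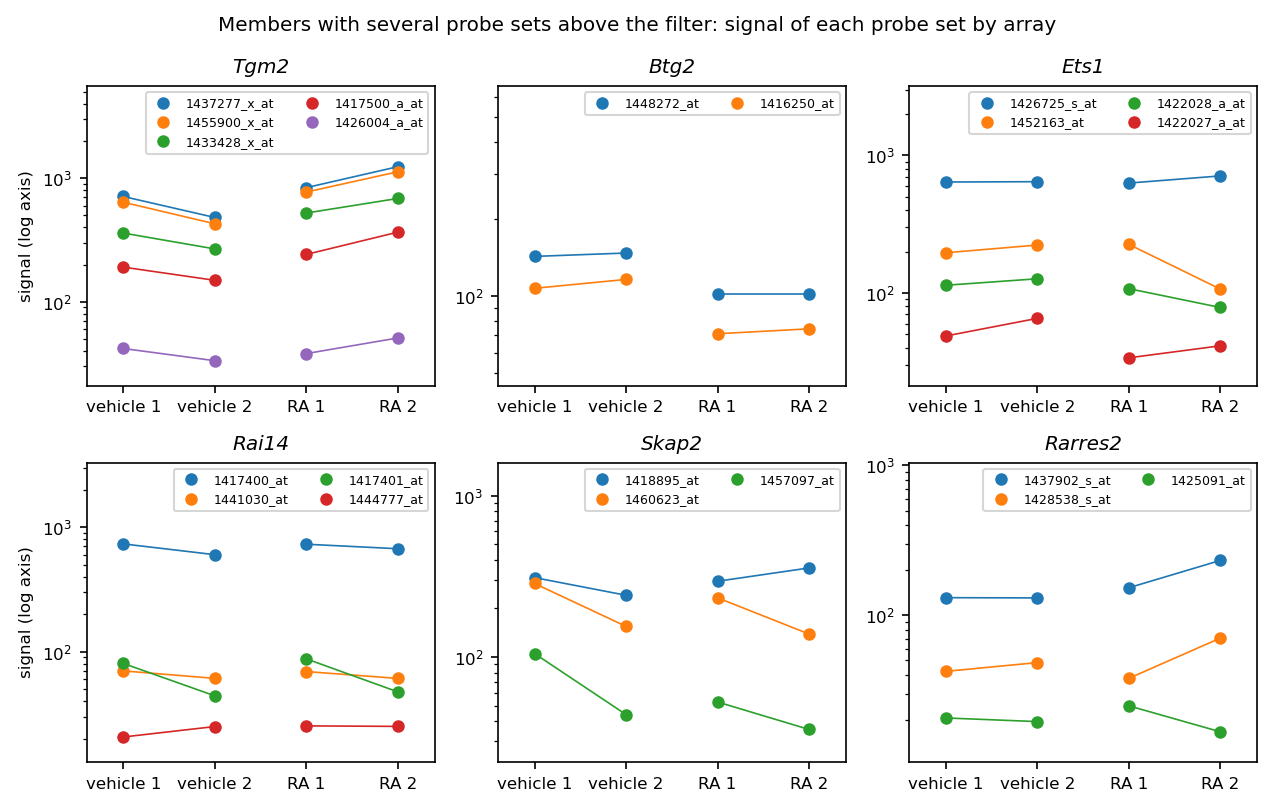
Signal (log axis, y) on the 4 arrays (x) of each probe set above the filter for the 6 members that have several; lines join the 2 arrays of a group. The 4 brighter probe sets of Tgm2 run in parallel and those of Btg2 too, while the dimmest shown for Tgm2, 1426004_a_at, does not. In Ets1, Skap2 and Rarres2 the brightest probe set and the dimmer ones run differently.

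Among the signalling proteins, Tnip1 and Skap2, small positive differences were found on the brightest probe sets. Tnip1 encodes a ubiquitin-binding partner of the deubiquitinase A20 that restrains NF-kappaB signalling, and it also binds RA receptors as a corepressor. Its upstream sequence, 250 bases at chr11:54962941-54963190 of GRCm38.p6, minus strand, is from the same RefSeq table and is shown 5' to 3'. Capitals mark overlapping matches to the kappaB consensus, looked for on both strands after the sequence was read.
Tnip1: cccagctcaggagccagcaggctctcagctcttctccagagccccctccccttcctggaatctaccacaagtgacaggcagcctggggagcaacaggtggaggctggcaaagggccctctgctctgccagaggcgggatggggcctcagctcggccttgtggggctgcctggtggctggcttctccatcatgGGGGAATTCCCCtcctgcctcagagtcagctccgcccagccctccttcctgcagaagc
The matches cover the bases from 58 to 47 before the start, and the consensus is found in 7.25% of the upstream sequences in the table. This window holds neither half-site, and no direct repeat of them. Among the 6 members with an entry in the table, Btg2, Rarres1, Skap2, Tnip1, Foxa1 and Rai14, a half-site was found in Btg2 and in 1 of the 2 sequences of Rai14, and a direct repeat in 0. Of all upstream sequences in the table, 24.2% hold a half-site. Direct repeats with a spacing of 1, 2 and 5 bases are in 0.067%, 0.0365% and 0.0335%, so their absence says nothing particular to the members.

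The single probe set of Tnip1 read 379 and 295 with vehicle against 411 and 395 with RA. Both RA signals exceeded both vehicle signals, with a smaller gap between the groups than within the vehicle group. The difference was 1.2-fold (log2 change 0.27 ± 0.21, 95% interval −0.21 to 0.74), and without vehicle replicate 2 the log2 change was 0.09. Of 10 NF-kappaB target genes, 10 were above the filter, with a median log2 change of −0.01. In 2 both RA signals fell short of both vehicle signals, against 12.6% of all genes, and in 0 the reverse held, against 14.1%. At an unadjusted p under 0.05 in limma 1 was lower and 0 were higher, where 1.3% and 1.41% of all genes were. The lower one was Ccl2, a chemokine that attracts monocytes, which read 1077 and 958 with vehicle against 745 and 566 with RA (log2 change −0.64 ± 0.22, adjusted p = 1). Tnfaip3, which encodes A20 itself, stood at 0.25 ± 0.24 and Nfkbia, the inhibitor that NF-kappaB induces, at 0.28 ± 0.28, with overlapping groups in both.

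Skap2, an adaptor of Src family kinases that was once named for its induction by RA, was not read alike by its probe sets. The brightest, 1418895_at, had 311 and 241 with vehicle and 295 and 356.5 with RA (log2 change 0.24 ± 0.22). The second, 1460623_at, had 286 and 155 against 233 and 139 (−0.22 ± 0.35), and the dimmest, 1457097_at, had 105 and 44.0 against 52.6 and 35.6 (−0.60 ± 0.42). On these dimmer probe sets, the replicate 2 arrays of both groups were lower than the replicate 1 arrays, and on none of the 3 were the groups separate. Single arrays moved both ends: 1418895_at gave 0.06 without vehicle replicate 2, and 1457097_at gave −0.02 without vehicle replicate 1 and −1.19 without vehicle replicate 2. The mean of the 3 probe sets gave −0.19. Of the partners of Skap2, Sirpa, an inhibitory receptor of myeloid cells and neurons, had 516 and 597 with vehicle and 374 and 387 with RA, a 1.45-fold lower level (log2 change −0.54 ± 0.19; limma, unadjusted p = 0.0237, adjusted p = 1), with −0.24 on its other probe set above the filter. The kinases Fyn and Src had log2 changes of −0.19 ± 0.20 and −0.18 ± 0.32. The 10 macrophage and leukocyte markers, with C1qa and Itgam below the filter, summed to 1545 and 3109 with vehicle and to 1165 and 2585 with RA, so that the groups overlapped.

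Rai14, an ankyrin repeat protein of the actin cytoskeleton that was first found as an RA-induced gene, showed little difference. Its brightest probe set, 1417400_at, had 733 and 601 with vehicle and 729 and 670 with RA (log2 change 0.07 ± 0.20, 95% interval −0.40 to 0.54), and −0.07 without vehicle replicate 2. The other 3 gave log2 changes between −0.01 and 0.12. The groups were separate on the dimmest, 1444777_at, where signals of 20.7 and 25.07 stood against 25.38 and 25.14. On 1417401_at the arrays divided by replicate number, at 80.5 and 87.5 for replicate 1 and 44.2 and 47.55 for replicate 2. The intervals of all 4 included 0, and that of the brightest is compatible with folds from 0.76 to 1.46. Uaca, a relative with a similar arrangement of ankyrin repeats and coiled coils, had a log2 change of 0.68 ± 0.34 with overlapping groups.

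Rarres1 and Rarres2, which are named for their response to retinoids, had the largest positive differences after Tgm2, neither of them past an unadjusted p of 0.05. Rarres1 encodes a membrane protein related to the carboxypeptidase inhibitor latexin. Its single probe set had 34.4 and 55.0 with vehicle and 53.3 and 69.5 with RA. The lower RA array was just under the higher vehicle array, and the log2 change was 0.44 ± 0.32 (95% interval −0.31 to 1.19; limma, unadjusted p = 0.212). Leaving out vehicle replicate 1 gave 0.14, and leaving out vehicle replicate 2 gave 0.74. Its relative Lxn, latexin itself, stood at −0.14 ± 0.26.

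Rarres2 encodes chemerin, a secreted chemoattractant and adipokine. On the brightest probe set, 1437902_s_at, it had 131 on each vehicle array and 153 and 232.5 with RA. Both RA arrays lay above, RA replicate 2 by far the more, and the difference was 1.42-fold (log2 change 0.51 ± 0.26, 95% interval −0.08 to 1.10; limma, unadjusted p = 0.0821). Without RA replicate 2 the log2 change was 0.22. The dimmer probe sets gave 0.18 ± 0.34 and 0.02 ± 0.31 with overlapping groups. Chemerin is made by stromal cells among others, and the 10 stromal and peritubular markers, all above the filter, summed to 10180 and 12960 with vehicle and to 10690 and 14100 with RA. The RA replicate 2 array was thus the highest in both, and the part of these cells in the Rarres2 values was not tested.

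Ccrl2, a surface receptor that binds chemerin without signalling, had the largest difference among the relatives and partners of the members. It read 21.1 and 11.9 with vehicle against 68.0 and 30.8 with RA, a 2.43-fold higher level (log2 change 1.28 ± 0.42; limma, unadjusted p = 0.0159, adjusted p = 1). The groups did not overlap. Without RA replicate 2 the log2 change was 1.80, and without RA replicate 1 it was 0.77. The vehicle signals were near the filter signal of 15.5, with 11.9 under it. Of 36 relatives and partners listed, 24 were above the filter, 1 was higher and 1 lower at an unadjusted p under 0.05, where 1.41% and 1.3% of all genes were, and their median log2 change was 0.01.

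The members' differences were small beside those of the genes of retinoid handling and meiotic entry on the same arrays. Of 8 such genes, each higher at an unadjusted p under 0.05, the median log2 change was 2.51, and the smallest adjusted p was 0.209. Stra8, needed for entry into meiosis, was at 3.35 ± 0.53, the RA-degrading enzyme gene Cyp26a1 at 3.08 ± 0.41 and Stra6, the receptor for the retinol-binding protein, at 2.31 ± 0.29. Rarb, an RA receptor gene, and Lrat, which esterifies retinol, were under the filter signal on both vehicle arrays (14.9 and 6.56, and 8.73 and 5.54) and passed through the RA arrays (95.4 and 90.5, and 34.7 and 130), so no fold is given for them. The median of the other 6 was 2.36. These 8 were listed with their response on these arrays known, so neither their direction nor their size is independent evidence. The contrast with the members is a description only. Tgm2, the highest of the 10 members at 0.80, was below each of these 6.

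A further 24 genes that RA induces in other cells, listed beside the members, had 15 above the filter. At an unadjusted p under 0.05 in limma 1 of the 15 was higher and 0 were lower, and 0 passed adjustment. In 5 both RA signals exceeded both vehicle signals and in 0 the reverse held, and the median log2 change was 0.19. Over all genes, 1.41% were higher and 1.3% lower at that p, and 14.1% lay above and 12.6% below. The one past the unadjusted threshold was Nrip1, a nuclear receptor corepressor that RA receptors are known to induce, which read 644 and 582 with vehicle against 791 and 944 with RA (log2 change 0.49 ± 0.20, adjusted p = 1). Its other 4 probe sets above the filter ran from −0.19 to 0.44. The mean of all 6, which takes in those below the filter, gave 0.16 with an unadjusted p of 0.51 in limma. The other 4 genes with separate groups were Plat, the tissue plasminogen activator, at 0.45 ± 0.24, the laminin gene Lamb1 at 0.37 ± 0.21, Hoxa5 at 0.43 ± 0.32 and Egr1 at 0.19 ± 0.22, named after their values were seen. Nr2f2, an orphan receptor that RA induces in embryonal carcinoma cells, stood at −0.48 ± 0.28 with overlapping groups.

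**Figure D4:**
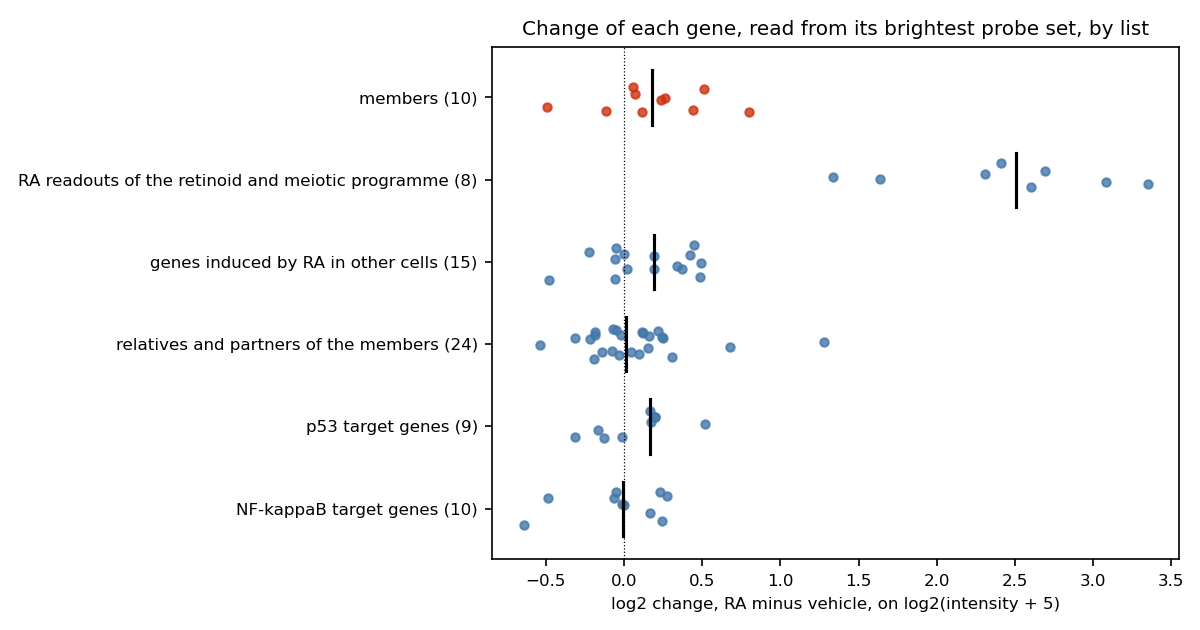
Log2 change, RA minus vehicle (x axis, log2(signal + 5) scale), of each gene above the filter, read from its brightest probe set, for the members (red) and 5 other lists (blue); black bars are medians and points are shifted vertically for legibility. The members' median is 0.18, that of the 15 other genes induced by RA elsewhere 0.19, and that of the 8 genes of retinoid handling and meiotic entry 2.51. Those 8 include Rarb and Lrat, which passed the filter only through the RA arrays, and the median of the other 6 is 2.36. The 8 were listed with their response on these arrays known.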

How the data were processed

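Expression was measured in 4 samples of THY1-enriched gonocytes, 1 array each. Per the labels, NuGEN Ovation amplification (version 2) started from 75 ng of total RNA, and GCOS 1.2 quantified the images. For each probe set and array the authors deposited a linear intensity; the probe summary and the scaling are not stated in the labels. The trimmed means were equal, so no further normalization was applied.

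After 64 control probe sets were left out of 45101, values were taken as log2(intensity + 5). Probe sets under the 40th percentile of mean log2 value were dropped. RA was compared with vehicle in limma 3.58.1 (R 4.3.3; lmFit, eBayes with an intensity trend; two-sided; Benjamini-Hochberg over all 27022 probe sets kept; 2 residual and 5.81 prior degrees of freedom). The fit was also run on simulated data with independent arrays and with changes larger than those of the members. That was a check of the code and does not bear on the members' values. Fold changes of dim genes are understated on this scale, and amplification from the 3' end can lower probe sets far from it.

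Groups came from the sample titles. Gene names came from the platform annotation, updated by Entrez ID through a GRCm38.p6 gene table (34741 probe sets matched); 34945 named 1 gene, 932 several and 9160 none. A gene was read from its brightest probe set. The members and lists were chosen with earlier results of these data known. Genes named beside the members were, per pathway list, up to 4 past an unadjusted p of 0.05 with separate groups, otherwise the 2 with the smallest p; from the marker lists, defining markers; and the 3 genes most like the member with the smallest p. Other relatives and targets are named for their role. List genes with no probe set of their own were not analysed here. Upstream sequences are from RefSeq (GRCm38.p6), matched by symbol for 6 of the 10 members. Python 3.11.15 with matplotlib 3.10.9 drew the figures.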

Additional observations from a re-analysis of the deposited data

How the results depend on the processing

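Alternatives covered the scaling, the pseudocount (1 and 20), the filter, the variance prior, the replicate number as a block, each array left out, the mean of all probe sets, and probe set types. The 4 higher probe sets of Tgm2 kept their direction under every alternative that measured them, and those of Btg2 theirs. Equal array medians moved the median log2 change of all genes from 0.01 to 0.09 and that of the members to 0.25. The count of members' probe sets with both RA arrays above went from 7 to 10. The share over all probe sets was not computed for that scaling, so this count says nothing particular to the members.

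The count of member probe sets lower at an unadjusted p under 0.05 in limma was 1 in the main analysis (1.65% of all probe sets). It was 0 with quantile normalization (1.43% of all), 0 with equal array medians (0.973%) and 0 with cyclic loess (1.44%). With the filter at the 60th percentile it was 0 (1.75%), and with no filter 2 (1.82%). Without probe sets ending in _x_at or _s_at, 1 was higher at that threshold, and in 3 both RA arrays lay above. The share over all probe sets of those types was not computed. With 1 array left out, the number of probe sets called over the whole array ran from 0 to 152, member probe sets higher at an unadjusted p under 0.05 from 0 to 5 (from 0.477% to 3.33% of all probe sets) and lower from 0 to 2 (from 0.385% to 4.89% of all), those with the RA arrays above from 9 to 12 and below from 5 to 10, which is easier to reach with fewer arrays, and the members' median from 0.0739 to 0.32. The causes of these moves were not tested. For all probe sets, the share with the RA arrays above or below was not computed with 1 array left out. The members' ranges of 9 to 12 and 5 to 10 thus say nothing particular to the members.

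Signs turned for Rai14 probe set 1441030_at (0.0471 with quantile normalization, 0.0672 with equal array medians, 0.0232 with cyclic loess), and for Ets1 (−0.32) and Skap2 (−0.19) when a gene's probe sets were averaged. With 1 array left out, they turned for Ets1 1426725_s_at (range −0.0295 to 0.14) and 1452163_at (−0.94 to 0.11), Foxa1 (−0.85 to 0.62), Rai14 1417400_at (−0.0686 to 0.22), 1417401_at (−0.30 to 0.51) and 1441030_at (−0.10 to 0.0833), Rarres2 1425091_at (−0.21 to 0.25) and 1428538_s_at (−0.22 to 0.59), Skap2 1460623_at (−0.65 to 0.21) and Zfp703 (−0.0156 to 0.25). None of these was called in the main analysis.

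Same-numbered arrays deviated together from their group means (correlation 0.526 across probe sets, 2 pairs), but the labels do not say that the numbers pair the samples. With the replicate block, 543 probe sets were called, 221 higher and 322 lower, among them 4 of Tgm2 (adjusted p from 9.44e-05 to 0.0034 in limma), and at an unadjusted p under 0.05 5 member probe sets were higher and 5 lower, where 3.76% and 6.72% of all were. Of the other genes named by the rule, Ccl2 (adjusted p = 0.0373), Ccrl2 (0.000429), Stra8 (1.38e-67), Cyp26a1 (6.99e-37), Stra6 (1.15e-20) and Rarb (1.66e-20) passed in that fit in limma. Rarb had passed the filter only through its RA arrays, so its call is no support. That fit has 1 residual degree of freedom and took its variance wholly from the prior, so its p-values rest on the spread of other probe sets.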
